A study of Mus musculus with 8 samples.

Results

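The genes described here are the axon guidance ligands and receptors of the mouse: the Eph receptors and their ephrin ligands, the semaphorins and the plexins that receive them, the netrins with *Dcc* and the *Unc5* receptors, and the Slits with the Robo receptors. They were taken by gene symbol from the protein-coding genes of the table. The rule uses no measured value, although it was chosen with earlier results of these data known. It gave 66 of the 54532 genes. Of these, 34 are ligands and 32 are receptors, and 64 of the 66 had enough reads to be among the 17998 genes tested, the exceptions being *Ntn5* and *Slit3*. RNA-seq of whole retina was made from 4 *Mettl3*-CKO and 4 littermate control samples. The sources conflict on the age, which the labels and the study's results give as postnatal day 7 and its methods as the day before. *Mettl3*-CKO animals are *Six3-Cre*+; *Mettl3* floxed/floxed, so that *Mettl3*, the catalytic subunit of the complex that writes m6A (methylation of adenosine at its nitrogen 6) on mRNA, is lost where *Six3-Cre* acts, in the retinal progenitors. Loss of the protein was shown by staining in the central retina. The study also reported less m6A on several candidate transcripts of *Mettl3*-CKO retinas, by PCR after pull-down with an m6A antibody. The RNA came from whole retina, whose vessels, microglia and immigrant astrocytes do not descend from those progenitors. The controls are called littermates and their alleles are not given in the sources used here. The study's statistics section speaks of biological replicates for its experiments in general. It does not state that each RNA-seq sample came from a separate animal, so the p-values measure only the spread between these samples.

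Guidance ligands steer growing axons and dendrites by attraction or repulsion. Ephrin-As are anchored to the membrane by a lipid and bind mainly EphA receptors, ephrin-Bs span the membrane and bind mainly EphB receptors, and both kinds of Eph are receptor tyrosine kinases. Semaphorins signal through plexins, those of class 3 mostly with a neuropilin as partner, while netrins bind DCC and UNC5 receptors and Slits bind ROBO receptors. In the retina these systems map ganglion cell axons onto the brain, keep them on their path to the optic nerve head, and hold the neurites of the inner plexiform layer in their strata. Endothelial cells of the growing retinal vessels use several of the same genes, and the day sampled falls in the period when those vessels spread and the last rods, bipolar cells and Müller glia are formed.

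The samples held 16227095 to 20281517 counts each, so that the largest value that 3 counts could take in a sample was 0.185 CPM (counts scaled to the library total, and for single genes also by the TMM factors). *Mettl3* measured 33.8, 32.5, 29.4 and 29.3 CPM in control replicates 1 to 4 and 21.1, 29.6, 21.3 and 24.3 CPM in *Mettl3*-CKO replicates 1 to 4. The library labelled *Mettl3*-CKO replicate 2 lay within the control range, and the change of *Mettl3* missed the threshold (log2 fold change -0.38 (SE 0.12), edgeR adjusted p = 0.0602), in counts summed over the whole gene. That library had the lowest summed rod markers (1653 CPM) and the highest summed progenitor and cell cycle markers (4544 CPM) of all samples. Control replicate 1 stood apart, with a summed level of the 66 guidance genes of 3762 CPM against 5023 to 5586 CPM in the other controls and 4464 to 5116 CPM in *Mettl3*-CKO, and with the highest summed rod markers of all samples (4724 CPM). Control replicate 4 held 5847 CPM of lens markers, against at most 107 CPM in any other sample. The total count of guidance genes and some of the counts by list below are therefore also given without these samples. Marker counts are given for all 8 samples only.

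Promoter sequences are shown for the 3 genes with the lowest adjusted p of the guidance genes, *Ephb2*, *Robo3* and *Efna1*, and for *Robo4*, the neighbour of *Robo3*, which fell with it. Each window runs 5′ to 3′ on the gene's own strand from 250 bases before to 50 bases after the start site and comes from RefSeq on GRCm38.p6. Windows were found for 56 of the 66 genes, and 9 motifs were searched on both strands. In the Robo promoters the capitals mark TAATCC or its reverse complement GGATTA, the core letters bound by the photoreceptor homeodomain factors of the CRX and OTX type. The *Robo3* window is chr9:37433126-37433425 on the minus strand, with the marked letters starting at position -113 from the start site, and the *Robo4* window is chr9:37401722-37402021 on the plus strand, with the marked letters at position -129.
*Robo3*: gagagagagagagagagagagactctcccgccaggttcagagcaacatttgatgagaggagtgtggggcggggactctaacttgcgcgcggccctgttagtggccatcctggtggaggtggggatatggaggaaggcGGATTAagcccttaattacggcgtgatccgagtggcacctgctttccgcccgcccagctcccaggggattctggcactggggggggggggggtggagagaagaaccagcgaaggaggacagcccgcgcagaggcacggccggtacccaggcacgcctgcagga
*Robo4*: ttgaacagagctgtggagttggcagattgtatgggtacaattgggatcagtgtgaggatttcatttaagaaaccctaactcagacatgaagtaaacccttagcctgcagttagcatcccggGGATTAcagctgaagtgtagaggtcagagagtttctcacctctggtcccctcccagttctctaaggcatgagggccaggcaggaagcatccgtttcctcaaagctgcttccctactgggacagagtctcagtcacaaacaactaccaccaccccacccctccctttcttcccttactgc
These were the 2 guidance genes of 56 (3.57%) whose windows hold TAATCC or GGATTA, against 8.14% of the 27025 genes with a window. In the next 2 promoters the capitals mark CCGGAA (reverse complement TTCCGG) or CGGAAG (reverse complement CTTCCG), overlapping cores of the ETS factors. The *Efna1* window is the first of its 2, chr3:89280902-89281201 on the minus strand, with CGGAAG at position -112, and the *Ephb2* window is chr4:136835963-136836262 on the minus strand, with TTCCGG at position -205.
*Efna1*: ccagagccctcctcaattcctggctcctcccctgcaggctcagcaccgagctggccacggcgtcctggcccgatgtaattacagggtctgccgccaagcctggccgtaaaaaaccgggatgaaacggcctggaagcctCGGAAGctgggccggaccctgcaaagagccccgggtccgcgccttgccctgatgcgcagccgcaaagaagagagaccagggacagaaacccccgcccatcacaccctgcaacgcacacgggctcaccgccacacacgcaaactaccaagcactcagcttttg
*Ephb2*: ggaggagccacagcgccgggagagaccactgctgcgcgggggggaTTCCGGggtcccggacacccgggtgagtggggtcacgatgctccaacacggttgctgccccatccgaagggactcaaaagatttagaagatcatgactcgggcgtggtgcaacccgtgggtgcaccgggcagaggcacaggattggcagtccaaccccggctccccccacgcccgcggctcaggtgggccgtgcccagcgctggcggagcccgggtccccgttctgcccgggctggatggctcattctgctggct
CCGGAA was held by 7 of the 56 genes (12.5%) and by 16.7% of all genes, and CGGAAG by 6 (10.7%) and 18.8%. GC boxes (GGGCGG or CCGCCC) stood in the windows of 41 of the 56 genes (73.2%) against 38.2% of all genes. Of the 9 called genes with a window 6 held one (*Efna1*, *Ephb4*, *Plxnd1*, *Robo3*, *Sema3e* and *Unc5b*), not a larger share than among the 56. The E-box CANNTG was in 57.1% of the guidance genes and 75.0% of all genes, its form CAGCTG, which CANNTG includes, in 21.4% and 18.3%, and the paired homeodomain site TAATTA in 5.36% and 6.12%. The E2F letters TTCCCGCC were in 3.57% and 2.52%, and CATGTC, a piece of a p53 site, in 7.14% and 11.6%. These matches describe letters in a window and not sites bound in the retina.

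Guidance genes changed in both directions, and most of them were not called. In *Mettl3*-CKO retinas 4 of the 64 tested genes were upregulated, the receptors *Ephb2* and *Ephb4* and the ligands *Sema3e* and *Efna4*, and 6 were downregulated, the receptors *Robo3*, *Robo4*, *Plxnd1* and *Unc5b* and the ligands *Efna1* and *Sema3b* (edgeR's quasi-likelihood test, adjusted p under 0.05). The upregulated share was 6.25%, beside 6.49% of all tested genes, and the downregulated share was 9.38%, beside 4.05% of all tested genes. Of the protein-coding genes tested, to which the guidance genes belong, 7.31% were upregulated and 4.53% downregulated. The median log2 fold change of the 64 genes was -0.02 and that of all 17998 genes was -0.01. Groups did not overlap for 11 of the 64, where 17.4% of all genes and 2747 of the 14314 protein-coding genes tested did not overlap. Changes were of modest size, since 2 of the 10 called genes, *Robo4* and *Efna1*, passed 2-fold. Of the 54 genes that were not called, 52 changed by less than 1.5-fold with a median SE of 0.13 on the log2 scale. With a limit of 1.5-fold added, 2 guidance genes were higher and 4 lower, beside 5.16% of all genes in either direction. Without Control replicate 1 the counts were 4 higher and 13 lower, without Control replicate 4 they were 3 and 3, without the library labelled *Mettl3*-CKO replicate 2 they were 3 and 4, and without Control replicates 1 and 4 together 3 and 9. Downregulated counts also moved to 3 without Control replicate 3 and to 2 without Control replicate 2, *Mettl3*-CKO replicate 1 or *Mettl3*-CKO replicate 3. The downregulated share of all tested genes fell in the same fits, to 2.54% without Control replicate 4, 2.48% without Control replicate 3, 1.91% without Control replicate 2, 1.01% without *Mettl3*-CKO replicate 1, 1.83% without *Mettl3*-CKO replicate 3 and 2.30% without *Mettl3*-CKO replicate 2. In whole retina, fewer cells of a type and less RNA per cell cannot be told apart, which holds for every gene below.

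**Figure D1:**
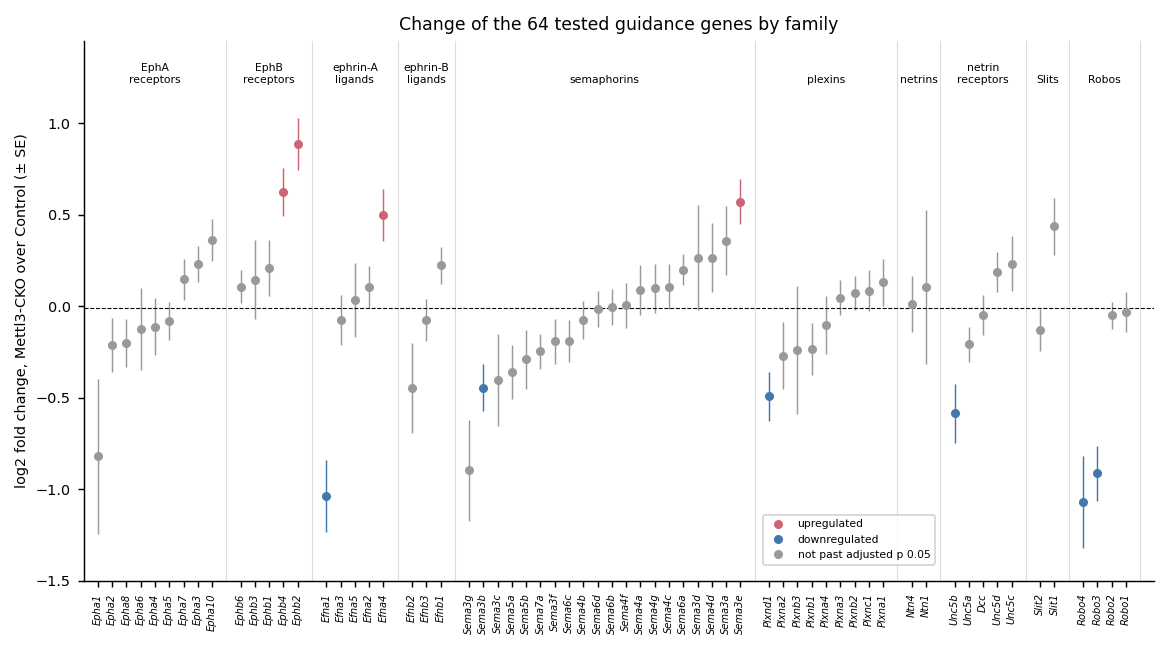
Log2 fold change of each of the 64 tested guidance genes (vertical axis, *Mettl3*-CKO over control, 4 samples per group) with its SE as a bar, ordered within family, where the dashed line is the median of all tested genes. The 4 upregulated genes reach from 0.50 to 0.89, the 6 downregulated ones from -0.44 to -1.07, and among the genes not called *Sema3g* (-0.90) and *Epha1* have the lowest values, below several called genes and with long SE bars.

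Per gene length, *Epha8*, a receptor for ephrin-As, was the most abundant guidance gene in the control retina, at 105 ± 22.5 FPKM (counts scaled by total count and gene length, SD, n = 4). *Robo3* came next at 37.2 ± 7.48 FPKM, and this gap was the only one among the first 12 ranks that exceeded the SDs of its neighbours. The order then ran through *Plxnb2* (35.9 ± 2.98), *Plxnb1* (34.4 ± 7.92), *Sema4g* (30.3 ± 6.11), *Sema3f* (28.1 ± 5.56) and *Sema7a* (25.02 ± 2.19) to *Plxna2*, *Efnb3*, *Sema4c*, *Sema5b* and *Plxna1* (18.1 ± 3.34), in which adjacent genes did not differ beyond their spread. At least 10 FPKM was reached by 21 of the 66 genes and at least 1 FPKM by 55. Scaling to TPM, which rescales FPKM to a fixed sum, left the order of all 66 genes the same. The called genes came from all levels, with 2 of the 10 (*Ephb2* and *Robo3*) at 10 FPKM or more and 1 (*Robo4*) under 1 FPKM.

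**Figure D2:**
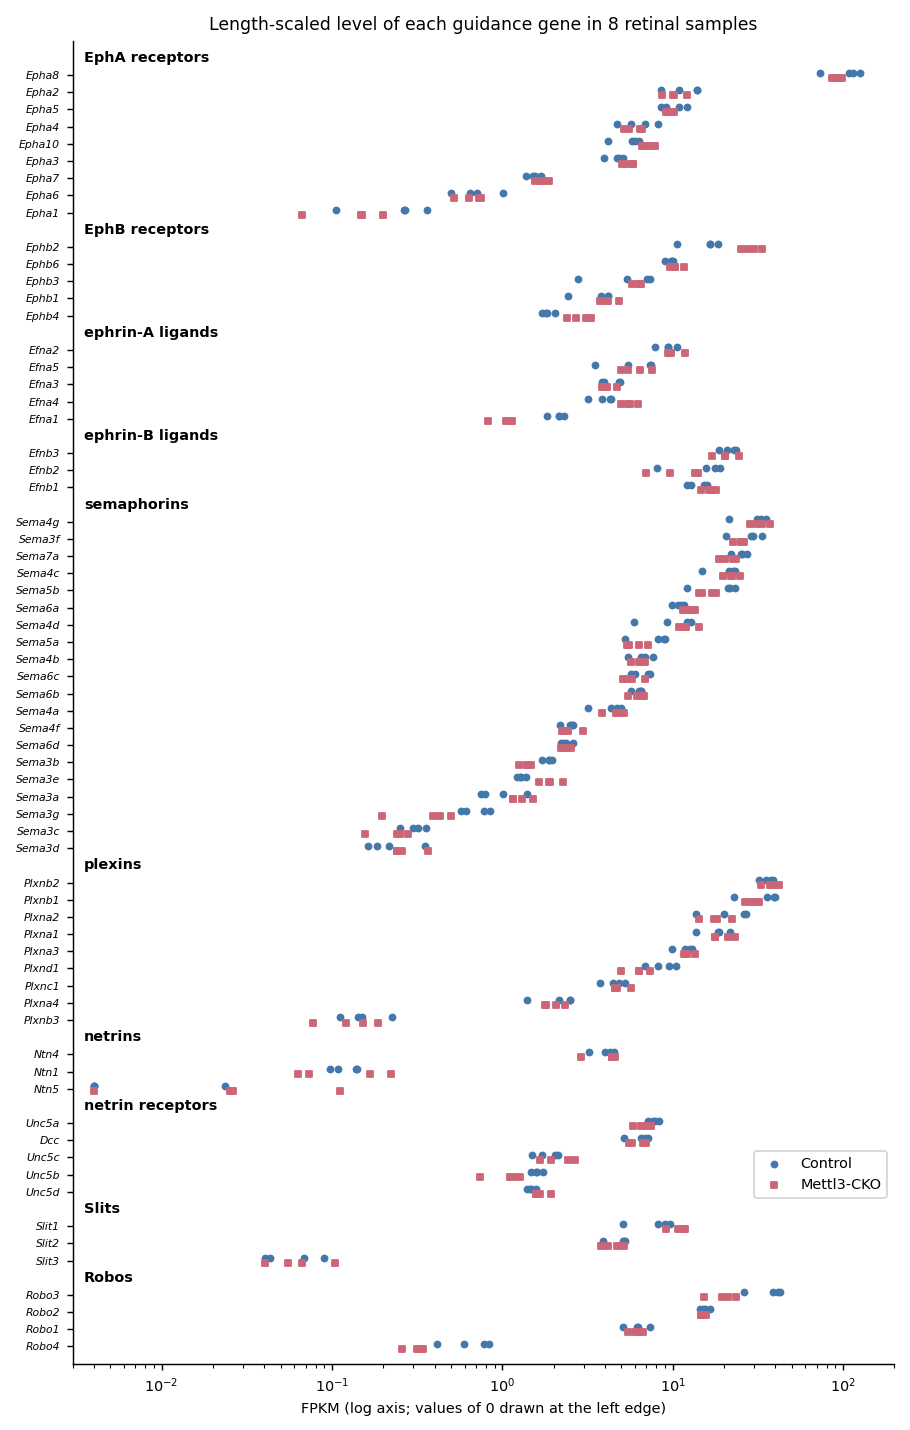
FPKM of each of the 66 guidance genes in the 4 control and 4 *Mettl3*-CKO samples (horizontal log axis, one point per sample, genes grouped by family and ordered by control mean). *Epha8* lies farthest to the right near 105 FPKM, *Ntn5* reads 0 in several samples, and the groups part most visibly at *Ephb2*, *Efna1*, *Robo3* and *Robo4*.

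Among the Eph receptors, both called genes were EphB receptors and both rose. *Ephb2* (ENSMUSG00000028664, chr4:136647539-136835988, minus strand), a receptor for ephrin-Bs that takes part in guiding ganglion cell axons, measured 138, 208, 232 and 208 CPM in control replicates 1 to 4 and 417, 378, 319.6 and 339.9 CPM in *Mettl3*-CKO replicates 1 to 4. All *Mettl3*-CKO samples lay above all controls, with Control replicate 1 the lowest and *Mettl3*-CKO replicate 1 the highest. The means were 197 ± 40.8 and 363 ± 42.9 CPM (SD, n = 4). *Ephb2* thus rose with a log2 fold change of 0.89 (SE 0.14) and the lowest adjusted p of the 64 genes (0.00272 in edgeR), and was called whichever of the 8 samples was removed. *Ephb4* (ENSMUSG00000029710, chr5:137350109-137378669, plus strand), the ephrin-B2 receptor known from venous endothelium, was far less abundant, at 8.24, 8.39, 9.44 and 8.34 CPM in the controls and 14.3, 15.3, 11.2 and 12.4 CPM in *Mettl3*-CKO. Its controls lay close together, replicate 3 being highest, and every *Mettl3*-CKO sample exceeded them (log2 fold change 0.62 (SE 0.13), adjusted p = 0.0112 in edgeR). The other EphB receptors were not called, *Ephb6*, whose kinase domain is inactive, at 36.7 ± 1.98 and 39.5 ± 3.23 CPM, *Ephb3* at 37.5 ± 13.6 and 41.4 ± 1.96 CPM, and *Ephb1*, which turns ganglion cell axons aside at the optic chiasm, at 25.4 ± 5.46 and 29.3 ± 3.46 CPM in control and *Mettl3*-CKO. The median log2 fold change of the 5 was 0.21 with 5 positive, and 0.13 with 4 positive without Control replicate 1.

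Of the 9 EphA receptors 0 were called by edgeR, 2 having an unadjusted p under 0.05 and 1 being called by DESeq2, with a median log2 fold change of -0.11. *Epha8* measured 357, 507, 592 and 538 CPM in the controls and 405, 467, 426 and 439 CPM in *Mettl3*-CKO. The *Mettl3*-CKO values fell between Control replicate 1 and the other controls (log2 fold change -0.20 (SE 0.13), adjusted p = 0.387 in edgeR). *Epha10*, a receptor with an inactive kinase, gave 30.9, 43.2, 41.7 and 45.1 CPM in the controls and 55.96, 53.1, 48.2 and 49.4 CPM in *Mettl3*-CKO. Its groups did not overlap, but it missed the threshold at a log2 fold change of 0.36 (SE 0.12) and an adjusted p of 0.0653 in edgeR, and passed it with DESeq2 (adjusted p = 0.0389) and with edgeR without the filter on low counts (adjusted p = 0.0415). *Epha5*, which reads ephrin-A levels in mapping, measured 171 ± 26.2 CPM in control and 162 ± 8.31 CPM in *Mettl3*-CKO. *Epha4* measured 51.7 ± 13.00 and 47.8 ± 5.49 CPM, and *Epha3* 40.8 ± 4.54 and 47.8 ± 3.53 CPM. *Epha1*, the least abundant, overlaps *Zyx* on the opposite strand by 1727 bases, and had a mean of 13.8 counts against 542 for *Zyx*.

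Among the 5 ephrin-As 1 fell and 1 rose. *Efna1* (ENSMUSG00000027954, chr3:89271733-89281142, minus strand), a ligand first known as a gene that endothelial cells switch on under inflammatory signals, measured 4.33, 3.92, 3.36 and 3.93 CPM in the controls and 1.49, 2.09, 2.07 and 1.91 CPM in *Mettl3*-CKO. The lowest control stood well above the highest *Mettl3*-CKO sample. From 3.88 ± 0.401 to 1.89 ± 0.277 CPM (SD, n = 4), *Efna1* was 2.05-fold lower in *Mettl3*-CKO (log2 fold change -1.04 (SE 0.20), adjusted p = 0.00698 in edgeR). *Efna4* (ENSMUSG00000028040, chr3:89333390-89338028, minus strand), on the same chromosome, went the other way, with 5.24, 6.80, 6.98 and 6.10 CPM in the controls and 9.90, 7.94, 9.03 and 8.65 CPM in *Mettl3*-CKO. The groups were parted by a narrow margin, *Efna4* reached a log2 fold change of 0.50 (SE 0.14) at an adjusted p of 0.0421 in edgeR, and it missed the threshold whichever of the 8 samples was removed (adjusted p = 0.0505 to 0.138). *Efna3* lies between these 2 genes, 32.8 kb from *Efna1* and 10.4 kb from *Efna4*, and measured 10.7 ± 1.53 CPM in control and 10.2 ± 0.848 CPM in *Mettl3*-CKO, not called. *Efna2* and *Efna5*, the graded ephrin-As of the visual map, measured 19.9 ± 2.13 and 24.02 ± 7.30 CPM in control and 21.4 ± 2.45 and 24.6 ± 4.57 CPM in *Mettl3*-CKO, and neither was called.

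Of the 3 ephrin-Bs 0 were called by edgeR, DESeq2 or voom, with 1 at an unadjusted p under 0.05. *Efnb2*, the ligand of EPHB4 and a marker of arterial endothelium that is also high in dorsal retina, measured 57.6, 107, 129.99 and 119.8 CPM in the controls and 47.7, 97.2, 66.7 and 92.2 CPM in *Mettl3*-CKO. Both groups spread widely, *Efnb2* being lowest in *Mettl3*-CKO replicates 1 and 3 and in Control replicate 1 (log2 fold change -0.45 (SE 0.25), adjusted p = 0.286 in edgeR). *Efnb1* measured 48.4 ± 5.77 and 56.5 ± 4.66 CPM and *Efnb3*, the most abundant of the 3 per length, 68.7 ± 6.27 and 65.2 ± 10.01 CPM.

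Of the 20 semaphorins, 1 rose and 1 fell, both secreted ligands of class 3. *Sema3e* (ENSMUSG00000063531, chr5:14025276-14256689, plus strand), which binds plexin-D1 without a neuropilin, measured 13.2, 11.3, 11.8 and 11.8 CPM in the controls and 17.5, 15.2, 21.4 and 17.2 CPM in *Mettl3*-CKO. The control samples lay close together and below all *Mettl3*-CKO samples, of which replicate 3 was highest. The log2 fold change of *Sema3e* was 0.57 (SE 0.12) at an adjusted p of 0.0135 in edgeR, and it was called whichever of the 8 samples was removed. *Sema3b* (ENSMUSG00000057969, chr9:107597674-107609229, minus strand), a neuropilin ligand, measured 9.68, 8.88, 8.97 and 8.16 CPM in the controls and 5.92, 6.67, 6.69 and 6.94 CPM in *Mettl3*-CKO. Every control exceeded every *Mettl3*-CKO sample, with a log2 fold change of -0.44 (SE 0.13) and an adjusted p of 0.0438 in edgeR. *Sema3b* lost its call whichever of the 8 samples was removed (edgeR adjusted p = 0.0535 to 0.132). *Sema3f*, its neighbour at a distance of 72.3 kb and a ligand of neuropilin-2, measured 109.6, 149, 175 and 153 CPM in the controls and 135, 131, 118 and 129.9 CPM in *Mettl3*-CKO. Control replicate 1 was the lowest of the 8 samples for *Sema3f* and the other 3 controls exceeded all *Mettl3*-CKO samples (log2 fold change -0.19 (SE 0.12), adjusted p = 0.365 in edgeR). *Sema3g*, a ligand made by arterial endothelium, measured 3.64, 2.57, 2.78 and 3.81 CPM in the controls and 0.885, 2.26, 1.97 and 1.76 CPM in *Mettl3*-CKO. These groups were also separate, yet *Sema3g* missed the threshold (log2 fold change -0.90 (SE 0.28), adjusted p = 0.0572 in edgeR), while DESeq2 called it (adjusted p = 0.0220), as did edgeR without the filter on low counts (adjusted p = 0.0344).

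The membrane-bound semaphorins were not called. In class 4, with 6 genes and a median log2 fold change of 0.09, *Sema4g* measured 148 ± 28.04 CPM in control and 158 ± 18.2 CPM in *Mettl3*-CKO. Both class 5 semaphorins, which confine the neurites of inner retinal neurons, had negative log2 fold changes, *Sema5a* with 101, 151, 167 and 166 CPM in control and 102, 135, 102 and 118 CPM in *Mettl3*-CKO replicates. *Sema5b* gave 88.4, 148, 165 and 152 CPM in the controls and 99.9, 127, 106 and 119.6 CPM in *Mettl3*-CKO. For both genes Control replicate 1 lay below all *Mettl3*-CKO samples and the other 3 controls above them, and neither passed the test (log2 fold change -0.36 (SE 0.15), adjusted p = 0.155 and -0.29 (SE 0.16), adjusted p = 0.292 in edgeR). Class 6, which holds *Sema6a* and *Sema6d*, ligands of A-type plexins in retinal layering, had a median of -0.01, with *Sema6a* at 95.5 ± 5.17 and 109.6 ± 7.89 CPM and *Sema6d* at 25.1 ± 2.24 and 24.8 ± 1.66 CPM. *Sema7a*, the lipid-anchored member, measured 82.9 ± 5.93 and 69.8 ± 7.01 CPM.

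Among the 9 plexins only *Plxnd1* (ENSMUSG00000030123, chr6:115954811-115995005, minus strand) was called in the fit of all samples. This receptor of SEMA3E, known from endothelial cells, measured 51.9, 59.8, 76.01 and 68.7 CPM in the controls and 46.1, 53.5, 36.8 and 46.1 CPM in *Mettl3*-CKO. The groups overlapped, since *Mettl3*-CKO replicate 2 lay above Control replicate 1. *Plxnd1* fell with a log2 fold change of -0.49 (SE 0.13) and an adjusted p of 0.0349 in edgeR, so that receptor and ligand changed in opposite directions, and of the 8 single removals it kept its call in 2, those of Control replicate 1 and *Mettl3*-CKO replicate 2 (adjusted p = 0.0671 to 0.113 in the others). *Plxnb2* and *Plxnb1*, which bind class 4 semaphorins, were the most abundant plexins per length, at 278 ± 19.3 and 331 ± 72.1 CPM in control and 292 ± 28.9 and 281 ± 21.9 CPM in *Mettl3*-CKO. The A-type plexins that serve class 3 and class 6 ligands were not called either, *Plxna2* at 374 ± 102 and 309.8 ± 56.9 CPM, *Plxna1* at 164 ± 28.5 and 179.8 ± 24.05 CPM, *Plxna3* at 93.3 ± 9.49 and 96.4 ± 6.86 CPM and *Plxna4* at 30.1 ± 6.98 and 28.1 ± 3.56 CPM. *Plxnc1*, the SEMA7A receptor, measured 38.3 ± 4.77 and 40.6 ± 4.58 CPM.

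Netrin ligands were low, and 0 of the 2 tested were called by edgeR, DESeq2 or voom or had an unadjusted p under 0.05. *Ntn4*, a basement membrane netrin, measured 12.5, 16.8, 15.1 and 15.9 CPM in the controls and 16.4, 17.2, 10.9 and 16.3 CPM in *Mettl3*-CKO, with *Mettl3*-CKO replicate 3 the lowest of the 8. *Ntn1*, the netrin of the optic disc, was low, at 0.763 ± 0.144 and 0.825 ± 0.478 CPM. Of the 5 netrin receptors *Unc5b* (ENSMUSG00000020099, chr10:60762593-60831581, minus strand), the one enriched in endothelial tip cells, fell, from 9.52, 9.74, 10.1 and 10.7 CPM in the controls to 6.86, 4.64, 7.28 and 7.82 CPM in *Mettl3*-CKO. All *Mettl3*-CKO samples were below the tightly grouped controls, *Mettl3*-CKO replicate 2 the farthest. The log2 fold change of *Unc5b* was -0.59 (SE 0.16) with an adjusted p of 0.0358 in edgeR, and of the 8 single removals it kept its call in those of Control replicate 1 and *Mettl3*-CKO replicate 4 (adjusted p = 0.0633 to 0.103 in the others). *Dcc*, which draws ganglion cell axons into the optic nerve, measured 52.02 ± 6.13 CPM in control and 50.3 ± 5.44 CPM in *Mettl3*-CKO, *Unc5a* 32.4 ± 1.70 and 28.04 ± 2.84 CPM, and *Unc5c* 35.4 ± 5.35 and 41.5 ± 8.72 CPM, none of them called.

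The Robo receptors held the decrease with the lowest adjusted p, and of the 2 Slits tested 0 were called by edgeR, DESeq2 or voom, 1 (*Slit1*) having an unadjusted p under 0.05. *Robo3* (ENSMUSG00000032128, chr9:37415669-37433246, minus strand), known from commissural neurons and a weak binder of Slits in mammals, measured 186, 281, 266 and 290.4 CPM in the controls and 104, 144, 135 and 160.4 CPM in *Mettl3*-CKO. Its highest *Mettl3*-CKO sample was below its lowest control, which was replicate 1. The means were 256 ± 47.6 and 136 ± 23.6 CPM (SD, n = 4), and *Robo3* fell with a log2 fold change of -0.91 (SE 0.15) and an adjusted p of 0.00297 in edgeR. *Robo4* (ENSMUSG00000032125, chr9:37401897-37415115, plus strand), the Robo of endothelial cells, was low, at 4.55, 4.10, 2.20 and 3.14 CPM in the controls and 1.66, 1.80, 1.38 and 1.81 CPM in *Mettl3*-CKO. The groups did not overlap, although the controls spread widely among themselves. *Robo4* had a log2 fold change of -1.07 (SE 0.25) and an adjusted p of 0.0195 in edgeR, and missed the threshold without Control replicate 2, *Mettl3*-CKO replicate 1 or *Mettl3*-CKO replicate 3 (adjusted p = 0.0614 to 0.0697). *Robo3* and *Robo4* end 553 bases apart on opposite strands and face each other. Whether strand was used in counting is not given in the sources used here, so a share of the *Robo4* reads that stems from its far more abundant neighbour cannot be told apart from its own. *Robo1* and *Robo2*, the Slit receptors of axons, measured 103 ± 14.4 and 263 ± 16.1 CPM in control and 101 ± 8.63 and 254 ± 7.25 CPM in *Mettl3*-CKO and were not called. Of their ligands, *Slit1* measured 31.2, 47.9, 53.1 and 56.9 CPM in the controls and 69.5, 68.6, 54.7 and 63.1 CPM in *Mettl3*-CKO. Control replicate 1 was far below the rest for *Slit1*, and the log2 fold change of 0.44 (SE 0.16) missed the threshold (adjusted p = 0.0998 in edgeR), which it passed when edgeR was run without the filter on low counts (adjusted p = 0.0176). *Slit2* measured 124 ± 14.5 and 113 ± 15.4 CPM.

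**Figure D3:**
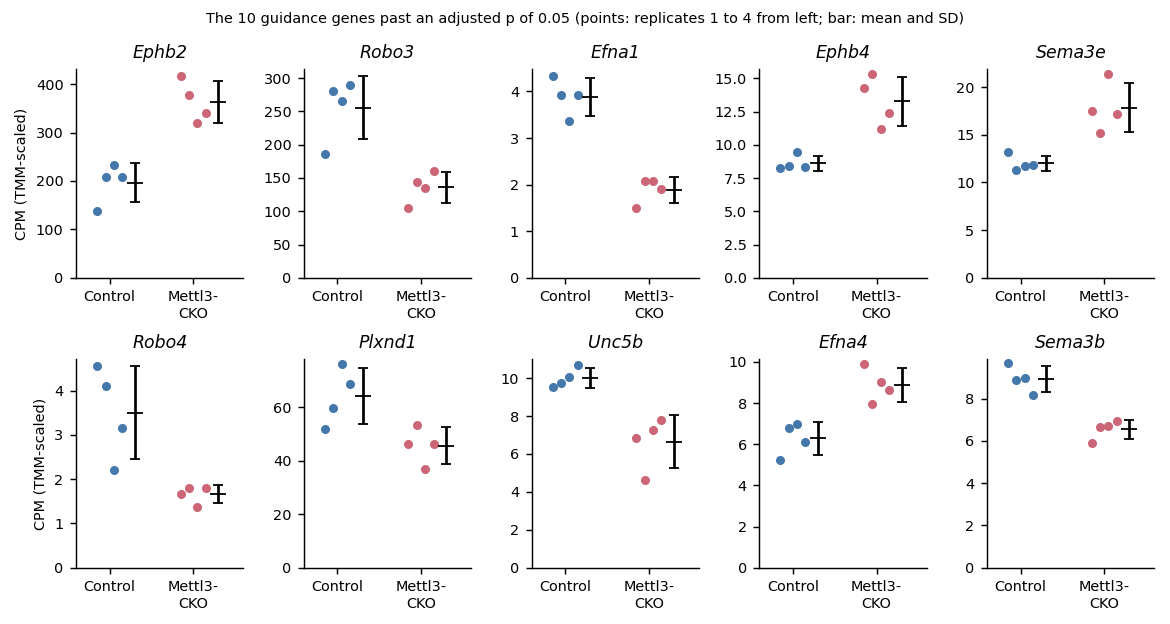
CPM of the 10 called guidance genes in each sample (vertical axis from 0, points are replicates 1 to 4 from left to right in each group, the bar at the right of each group its mean and SD, n = 4). The groups are apart in 9 panels and overlap in that of *Plxnd1*, where *Mettl3*-CKO replicate 2 exceeds Control replicate 1.

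Summed over each family per gene length, EphB receptors gave 27.4, 37.6, 41.3 and 39.00 FPKM in control replicates 1 to 4 and 58.5, 54.7, 47.7 and 49.7 FPKM in *Mettl3*-CKO replicates 1 to 4. The Robos gave 47.2, 62.8, 63.1 and 64.99 FPKM in the controls and 35.9, 42.7, 40.4 and 46.1 FPKM in *Mettl3*-CKO. These were the 2 of the 10 families whose summed levels did not overlap between the groups. The first was higher and the second lower in *Mettl3*-CKO. Each sum holds a called gene, its most abundant member per length in the controls, that parted the groups alone. *Ephb2* gave 10.6, 16.6, 18.4 and 16.6 FPKM in the controls and 33.3, 29.9, 25.1 and 27.2 FPKM in *Mettl3*-CKO. *Robo3* gave 26.3, 41.3, 38.7 and 42.7 FPKM, then 15.3, 21.04, 19.5 and 23.6 FPKM. *Ephb1*, *Ephb3*, *Ephb6*, *Robo1* and *Robo2* overlapped between the groups in CPM, so the sums do not show a change of every member. EphA receptors gave 109.9, 151, 170.3 and 155 FPKM in the controls and 128, 142, 130.3 and 132 FPKM in *Mettl3*-CKO, and the semaphorins 143, 191, 209.9 and 200.3 FPKM and 175, 195, 167 and 186 FPKM. In both families the *Mettl3*-CKO samples fell between Control replicate 1 and the highest control.

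**Figure D4:**
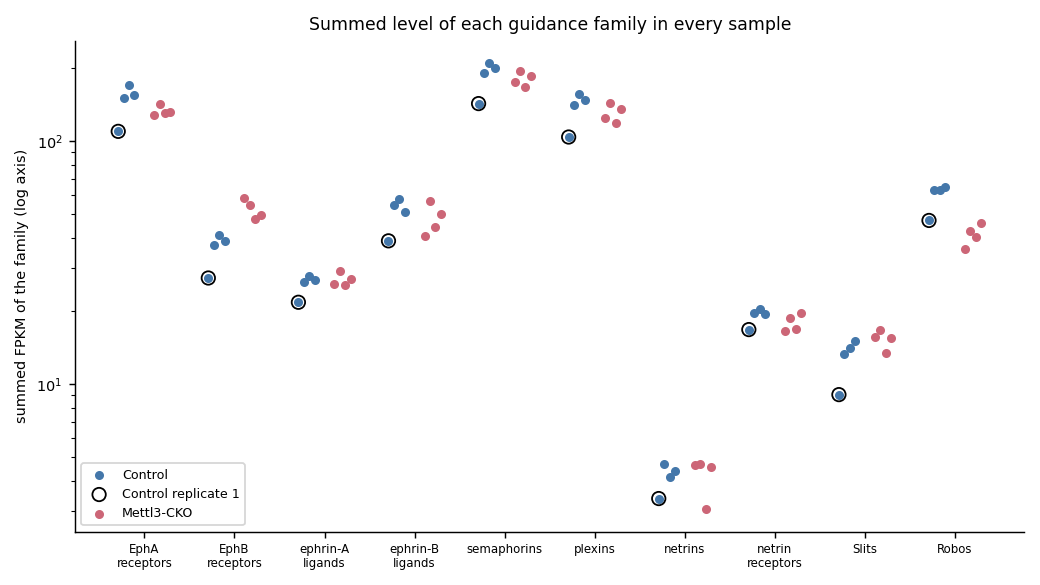
Summed FPKM of each guidance family (vertical log axis) in the 4 control and 4 *Mettl3*-CKO samples, replicates 1 to 4 from left to right, with Control replicate 1 ringed. The EphB sums, which include *Ephb2*, lie higher and the Robo sums, which include *Robo3*, lie lower in every *Mettl3*-CKO sample. Control replicate 1 is the lowest control in all 10 families.

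Grouped by what the genes are known for, those linked to endothelium held most of the decreases. This list, like the other role, partner and marker lists, was drawn up with earlier results of these data known. Its count of decreases is therefore not independent of them. Of its 7 genes, *Robo4*, *Unc5b*, *Plxnd1* and *Efna1* were downregulated, *Ephb4* was upregulated, and *Efnb2* and *Sema3g* were not called, though DESeq2 called *Sema3g* lower. Of all tested genes 4.05% were lower and 6.49% higher in edgeR, shares to read beside this list and the marker lists below. For counts by other tools the shares were 5.96% lower and 8.20% higher in DESeq2, and 3.83% and 6.38% in voom. The median log2 fold change of the 7 genes was -0.59 beside -0.01 for all genes. The count of decreases in this group was 1 without Control replicate 2, *Mettl3*-CKO replicate 1 or *Mettl3*-CKO replicate 3, 2 without Control replicate 3 or 4, and 3 to 5 with any other sample removed. The share of all tested genes called lower was 1.91% without Control replicate 2, 1.01% without *Mettl3*-CKO replicate 1 and 1.83% without *Mettl3*-CKO replicate 3. It was 2.48% without Control replicate 3, 2.54% without Control replicate 4, and 2.30% to 7.07% without any other single sample. Endothelial markers moved in the same direction, 10 of the 16 tested of 19 being downregulated in edgeR (12 by DESeq2 and 6 by voom) and 0 upregulated by any of these or at an unadjusted p under 0.05. *Pecam1*, *Cdh5* and *Flt1*, which define the cell type, measured 6.17, 5.45 and 6.07 CPM in control and 2.49, 1.49 and 2.40 CPM in *Mettl3*-CKO, so none was at 0. The summed endothelial markers ranged over 599.6 to 685 CPM in the controls and 559 to 667 CPM in *Mettl3*-CKO, a sum that *Kdr*, also a gene of retinal neurons and progenitors, dominates at 549 and 558 CPM. Without *Kdr* the sums did not overlap, at 63.0 to 71.8 CPM in Control replicates 2 to 4, 156 CPM in Control replicate 1 and 36.1 to 45.8 CPM in *Mettl3*-CKO. Mural cell markers split, with 2 of 7 tested higher, 2 lower and sums of 38.7 to 78.3 CPM in the controls and 48.2 to 69.8 CPM in *Mettl3*-CKO, and of the erythrocyte markers 2 of 3 tested were lower, with sums of 14.03 to 26.3 CPM in the controls and 4.28 to 7.40 CPM in *Mettl3*-CKO. The part of these cells in the changes of the 7 genes was not tested.

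Genes of the retinotopic map, 12 in number, included the upregulated *Ephb2* and 0 downregulated genes by edgeR, DESeq2, voom or an unadjusted p under 0.05, with a median of 0.12. The 6 that route ganglion cell axons to the optic nerve (*Dcc*, *Ntn1*, *Unc5c*, *Robo2*, *Slit1*, *Slit2*) and the 8 that layer inner retinal neurites (*Sema5a*, *Sema5b*, *Sema6a*, *Sema6d*, *Plxna1* to *Plxna4*) held 0 calls by edgeR, DESeq2 or voom, with 1 and 2 genes at an unadjusted p under 0.05 and medians of 0.03 and -0.06. Both zeros hold for all 8 samples with the filter on low counts, since *Slit1* was called higher without that filter, and 3 of the 8 layering genes (*Plxna2*, *Sema5a* and *Sema5b*) were called lower without Control replicate 1 and 2 of them without Control replicates 1 and 4 together. Without Control replicate 1 the medians were 0.05 for both the map and the routing genes and -0.13 for the layering genes, and 1 map gene, *Efnb2*, was called lower. Ganglion cell markers, the cells that grow these axons, had 1 of 12 upregulated (*Pou4f1*) and 0 downregulated in edgeR (2 at an unadjusted p under 0.05, 1 by DESeq2 and 0 by voom), with summed levels of 688 to 937 CPM in the controls and 739 to 774 CPM in *Mettl3*-CKO. Amacrine markers had 1 of 11 downregulated (*Slc6a9*) and summed to 1270.2 to 1725 CPM in the controls and 1379 to 1782 CPM in *Mettl3*-CKO. Rod markers were downregulated for 6 of 10 and summed to 3156 to 4724 CPM in the controls and 1653 to 3069 CPM in *Mettl3*-CKO, while markers of progenitors and the cell cycle were upregulated for 5 of 13 and summed to 2443 to 3329 CPM in the controls and 3389 to 4544 CPM in *Mettl3*-CKO. These marker calls stand beside 4.05% of all tested genes lower and 6.49% higher. The part of these markers' cells in the values of the guidance genes was not tested.

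Partner genes of the same pathways also moved both ways. Of 24 co-receptors, 3 rose and 2 fell, with a median log2 fold change of 0.06 (0.03 without Control replicate 1). Without Control replicate 3 the counts were 5 and 1, and without *Mettl3*-CKO replicate 1 the count of decreases was also 1. Of all tested genes 4.52% were higher and 2.48% lower in the first of these fits, and 2.78% and 1.01% in the second. Neuropilin-2 (*Nrp2*), through which *Sema3b*, *Sema3f* and *Sema3g* signal, measured 66.7, 64.1, 66.4 and 58.98 CPM in the controls and 28.3, 39.5, 35.8 and 40.99 CPM in *Mettl3*-CKO. No sample overlapped, and *Nrp2* fell with a log2 fold change of -0.82 (SE 0.11) and an adjusted p of 0.00104 in edgeR. *Lrrc4*, a netrin-G ligand at synapses, fell as well (log2 fold change -0.43 (SE 0.10), edgeR adjusted p = 0.0190). The heparan sulfate proteoglycan *Sdc1* rose, from 9.90, 11.5, 12.1 and 10.03 CPM in the controls to 36.2, 24.99, 26.7 and 19.8 CPM in *Mettl3*-CKO, the largest change among the called partners (log2 fold change 1.30 (SE 0.17), adjusted p = 0.000751 in edgeR). *Nrcam*, an adhesion molecule that joins plexin complexes, and *Met*, a receptor kinase that couples to plexin-Bs, rose too, by log2 fold changes of 0.48 (SE 0.09) and 0.74 (SE 0.17) (edgeR adjusted p = 0.00520 and 0.0176). *Nrp1*, the other neuropilin, measured 46.4 ± 6.37 and 37.6 ± 6.12 CPM and was not called. Of 41 effectors inside the cell, 3 rose and 2 fell, with a median of -0.08. These counts moved to 1 higher without Control replicate 4 or *Mettl3*-CKO replicate 1 and to 1 lower without Control replicate 3, *Mettl3*-CKO replicate 1 or *Mettl3*-CKO replicate 4. Without Control replicate 4, 4.58% of all tested genes were higher, and without *Mettl3*-CKO replicate 4, 3.14% were lower. *Srgap1*, a Robo effector that acts on small GTPases, and the adaptors *Nck1* and *Nck2* had log2 fold changes of 0.54 (SE 0.11), 0.46 (SE 0.12) and 0.51 (SE 0.13) (adjusted p = 0.00991, 0.0258 and 0.0235 in edgeR). *Dpysl4*, of the collapsin response mediators downstream of class 3 semaphorins, and *Rras*, a GTPase that plexins switch off, had -0.47 (SE 0.10) and -0.97 (SE 0.23) (edgeR adjusted p = 0.0108 and 0.0189). Both partner lists were called at shares, 20.8% and 12.2%, to be read beside 10.5% of all tested genes.

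Removing Control replicate 1 moved the number of decreases more than removing any other single sample. It was the lowest control for 47 of the 64 tested genes and the lowest of all 8 samples for 32. When it was left out, 13 guidance genes were downregulated, where 7.07% of all genes were, and the median of the 64 moved from -0.02 to -0.06. The 8 genes called lower only then were *Efnb2*, *Epha8*, *Plxna2*, *Plxnb1*, *Sema3f*, *Sema5a*, *Sema5b* and *Sema7a*. *Sema5a* had a log2 fold change of -0.50 (SE 0.10, adjusted p = 0.00278) in edgeR without this sample, *Sema5b* of -0.45 (SE 0.09, adjusted p = 0.00297) and *Plxnb1* of -0.38 (SE 0.08, adjusted p = 0.00459). *Epha8*, the most abundant guidance gene, then had -0.33 (SE 0.08, adjusted p = 0.0118), and *Efnb2* had -0.65 (SE 0.17, adjusted p = 0.0194). *Sema3a*, a neuropilin-1 ligand that repels axons, was called higher only in that fit, at 0.59 (SE 0.14, adjusted p = 0.00937), from 20.1, 10.96, 14.01 and 10.3 CPM in the 4 controls and 20.7, 16.1, 18.3 and 15.9 CPM in *Mettl3*-CKO. Its highest control was replicate 1, which lay within the *Mettl3*-CKO range. *Efna4* and *Sema3b* lost their calls there, and the other 8 genes called with all samples were called in both fits.

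**Figure D5:**
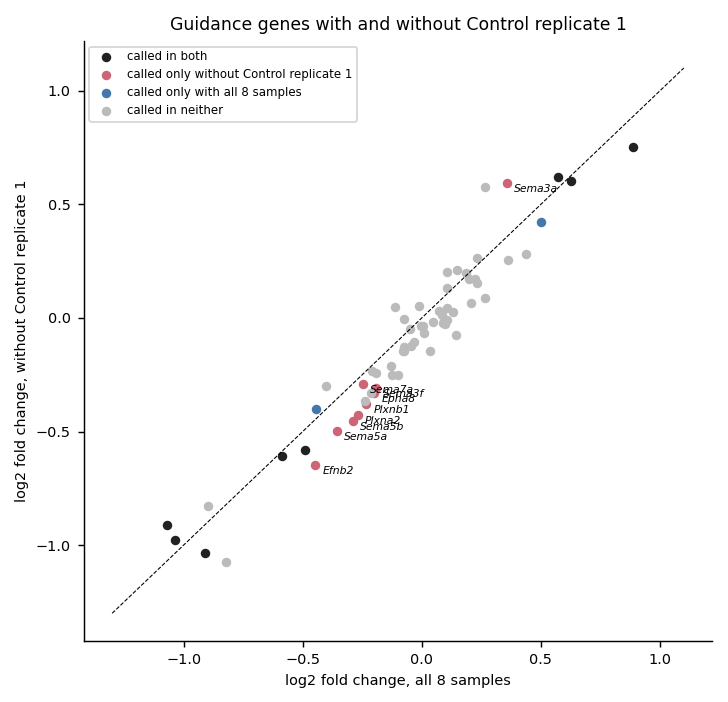
Log2 fold change of each of the 64 guidance genes with all 8 samples (horizontal axis) and without Control replicate 1 (vertical axis), where the dashed line marks equal values. The cloud shifts slightly below the line, the median moving from -0.02 to -0.06, and the 9 red points are the genes called only without that sample.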

How the data were processed

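The deposited table holds raw counts per gene, which the authors obtained by filtering reads, aligning them with HISAT2 to GRCm38 and assigning them to genes with featureCounts (base calls by CASAVA, per the labels). Gene annotation release and strand setting are not given in the sources used here. Gene lengths are the deposited column. Columns were matched to samples by their labels, and no sample column was left unused. The 66 genes were chosen by symbol, and they and the role, partner and marker lists were chosen with earlier results of these data known.

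In R 4.3.3, counts were filtered with filterByExpr, scaled by TMM (factors 0.969 to 1.01) and tested with the quasi-likelihood test of edgeR 4.0.16 between the 4 *Mettl3*-CKO and 4 control samples, without covariates, with Benjamini-Hochberg adjustment over all 17998 genes and a threshold of 0.05. SE is the absolute log2 fold change divided by the square root of F. The biological coefficient of variation was 15.0%. CPM uses TMM-scaled library sizes except for summed lists, which use library totals. FPKM uses library totals. No sample pair was alike within sampling noise (lowest same-group chi-square 5.45 per gene). Alternatives were DESeq2 1.42.0, limma 3.58.1 (voom), RLE and upper quartile factors, no filter, a mean of at least 10 counts, a replicate block, a 1.5-fold limit and removal of samples. The endothelial sum without *Kdr* and the genes and medians listed without Control replicate 1 were chosen after seeing the data. The test was checked on simulated counts. Named are the called genes, the most abundant of each family, genes that narrowly missed the threshold, called partners and defining markers. Others were named after their values were seen. Of the 66 genes, 39 overlap another annotated gene, 5 of them a protein-coding one. Marker lists covered endothelial, mural, ganglion, amacrine, rod, progenitor, Müller, astrocyte, microglial, lens, pigment epithelial and erythroid cells. The floor of 3 counts covers counting error only, while the SE includes the spread between samples. Single-cell and m6A data were not analysed here.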

Additional observations from a re-analysis of the deposited data

Results flagged for a closer look

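Within groups of 4 samples, 7 of the 128 gene and group combinations of the 64 tested guidance genes held a sample that stood apart from the other 3 by Dixon's test, where chance gives 6.4. In *Mettl3*-CKO, *Robo2*, a Slit receptor of axons, was high in replicate 4 at 265 CPM (others 249.6 to 251.1 CPM). *Plxnc1*, the SEMA7A receptor, was high in *Mettl3*-CKO replicate 2 at 47.4 CPM (37.8 to 38.7 CPM), as was *Efna2*, a graded ephrin-A, at 25.1 CPM (20.03 to 20.6 CPM). Replicate 3 of *Mettl3*-CKO was low for the basement membrane netrin *Ntn4* at 10.9 CPM (16.3 to 17.2 CPM) and high for the class 3 semaphorin *Sema3d* at 3.19 CPM (2.05 to 2.21 CPM). Among the controls, *Slit2* was low in replicate 1 at 102 CPM (129 to 132 CPM) and *Ephb4* was high in replicate 3 at 9.44 CPM (8.24 to 8.39 CPM). No sample held more than 2 of these 7 values.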

How the results depend on the processing

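With DESeq2, voom, RLE or upper quartile factors, no filter, or a mean of at least 10 counts, 4 or 5 guidance genes were higher and 6 or 7 lower, and a 1.5-fold limit left 2 higher and 4 lower. Of all tested genes, DESeq2 called 8.20% higher and 5.96% lower, voom 6.38% and 3.83%, and edgeR without a filter 3.86% and 2.37%. With RLE or upper quartile factors or a mean of at least 10 counts, 6.24% to 6.44% were higher and 4.12% to 4.26% lower. Removing one sample at a time gave 3 to 4 higher and 2 to 13 lower, the highest without Control replicate 1. In those fits 2.78% to 10.3% of all tested genes were higher and 1.01% to 7.07% lower, both highest without Control replicate 1. With the replicate block, 3 were higher and 4 lower, *Plxnd1*, *Sema3b* and *Efna4* losing their calls (adjusted p = 0.0615, 0.0672 and 0.0642 in edgeR). Of all tested genes 6.66% were higher and 3.67% lower in that fit. Deviations of same-numbered samples correlated at -0.03, 0.27, -0.11 and 0.27 across genes. Control replicates 2 and 4 correlated best with the *Mettl3*-CKO sample of their own number, and Control replicates 1 and 3 did not. Whether the numbers pair the samples therefore cannot be told from these values. No called gene changed sign. Over 16 alternatives and 64 genes, 50 of 1024 fold changes had the other sign, all in 21 genes that were not called, 40 lost and 20 gained a call. Of the 10 called genes, 5 (*Ephb2*, *Robo3*, *Efna1*, *Ephb4* and *Sema3e*) kept their calls with every single sample removed. The cause of lost and gained calls was not tested. Without a filter *Efna4* and *Sema3b* also missed the threshold (adjusted p = 0.0614 and 0.118 in edgeR). Removing Control replicates 1 and 4 together left *Efna4*, *Sema3b*, *Unc5b* and *Robo4* short of it (adjusted p = 0.172, 0.0868, 0.0733 and 0.0606 in edgeR).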

Other observations

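The guidance genes whose mean levels are not given above follow, and none of those tested was called with all samples. Among the Eph receptors, *Epha2*, an ephrin-A1 receptor, measured 55.3 ± 11.8 and 47.8 ± 6.85 CPM in control and *Mettl3*-CKO. *Epha7* gave 15.3 ± 1.48 and 16.9 ± 1.31 CPM and *Epha6* 3.79 ± 1.08 and 3.47 ± 0.528 CPM in the same order. Of the class 4 semaphorins, *Sema4c*, a ligand of plexin-B2, was the second in level per length, at 94.4 ± 16.4 and 102 ± 9.21 CPM, *Sema4d*, the ligand of plexin-B1, had 77.3 ± 23.5 and 93.02 ± 11.3 CPM, and *Sema4b* had 37.5 ± 4.69 and 35.6 ± 2.36 CPM. *Sema4a* gave 23.3 ± 4.02 and 24.8 ± 2.96 CPM and *Sema4f* 13.1 ± 0.791 and 13.1 ± 1.66 CPM. In class 6, *Sema6b* gave 24.9 ± 1.17 and 24.9 ± 2.25 CPM and *Sema6c* 39.2 ± 4.57 and 34.3 ± 4.49 CPM. The secreted *Sema3c* and *Sema3d* were near the low end at 2.20 ± 0.348 and 1.66 ± 0.390 CPM and 1.98 ± 0.774 and 2.38 ± 0.539 CPM, *Plxnb3* at 1.03 ± 0.310 and 0.872 ± 0.307 CPM, and *Unc5d*, a netrin receptor family member that binds FLRT proteins, at 13.7 ± 0.757 and 15.6 ± 1.37 CPM. *Ntn5* had 0, 0, 1 and 0 counts in control replicates 1 to 4 and 1, 1, 0 and 5 in *Mettl3*-CKO, and *Slit3* had 8, 4, 5 and 9 and 6, 7, 12 and 5 counts. Neither was tested.

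The remaining cell types were as follows, with calls to be read beside 4.05% of all tested genes lower and 6.49% higher. Müller glia markers had 1 of 8 tested genes upregulated (*Glul*) and 2 downregulated (*Rlbp1* and *Crym*), with summed levels of 2274 to 2873 CPM in the controls and 2199 to 2378 CPM in *Mettl3*-CKO. Astrocyte markers had 2 of 6 downregulated (*Gfap* and *Pdgfra*), with 296 to 420.1 CPM in the controls and 245 to 354 CPM in *Mettl3*-CKO. Of 7 microglia markers 0 were called by edgeR, DESeq2 or voom, with 1 at an unadjusted p under 0.05, and their sums were 36.95 to 116 CPM in the controls and 63.9 to 92.4 CPM in *Mettl3*-CKO. Pigment epithelium markers had 1 of 9 upregulated (*Rgr*) and 4 downregulated, with 103 to 137 CPM in the controls and 78.2 to 102 CPM in *Mettl3*-CKO, and lens markers 5 of 10 tested downregulated, with 8.79 to 5847 CPM in the controls and 10.7 to 31.1 CPM in *Mettl3*-CKO, the highest being Control replicate 4, and 0 were called by DESeq2 or voom.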
